A study of Mus musculus with 6 samples.

Results

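The tissue inhibitors of metalloproteinases (TIMPs) are a family of 4 genes in the mouse, Timp1, Timp2, Timp3 and Timp4. The members were taken by their symbols from the authors' gene table, and all 4 were found among its 24532 genes. Liver RNA came from wild-type C57BL/6 mice, and the chow of all 6 animals contained 0.1% DDC (3,5-diethoxycarbonyl-1,4-dihydrocollidine) for 4 weeks. This porphyrin-forming compound injures the bile ducts, and scar tissue grows around them. Over the last 2 weeks, 3 mice received recombinant human cytoglobin (rhCYGB) by injection, 2 mg/kg on each of 2 occasions per week, and 3 received the saline vehicle. The animals were killed 2 days after their last injection. The sources used here state neither age nor sex, and no animal without DDC was analysed here.

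TIMPs are secreted proteins that bind the active site of matrix metalloproteinases (MMPs), the enzymes that cut collagen and other matrix proteins. Timp3 also stays bound to the matrix and blocks several ADAM and ADAMTS proteases, which release membrane proteins and cleave proteoglycans. In scarred liver, Timp1 is made largely by activated stellate cells, and its presence is known to slow the removal of scar matrix and to keep those cells alive. Timp2 both blocks MMPs and, in a complex with the membrane protease Mmp14, helps to activate Mmp2. Timp4 is best known from heart and fat.

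Timp1 was lower with rhCYGB in all 3 mice than in any vehicle mouse, by about 2-fold on the CPM scale (counts scaled to library size with TMM factors). Timp2 was about level between the groups on that scale, so the library-internal ratio of Timp1 to Timp2 was lower in every rhCYGB library. Timp3 averaged lower, with wide spread and overlap between groups. Timp4 was nearly absent with vehicle and present in all 3 rhCYGB libraries, mostly in 1 of them. None of the 4 passed an adjusted p of 0.05 by edgeR's quasi-likelihood test over the 14415 genes tested, where 0% of genes passed. An unadjusted p under 0.05 in either direction was met by 8.12% of genes, and 13.4% had groups that did not overlap in CPM.

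Timp1 and Timp2 are the pair on which the clearest contrast turned, and their promoters are shown for that reason. Each runs from 250 bases before to 50 bases after the gene's start (RefSeq, GRCm38.p6), 5′ to 3′ on the gene's strand. Capitals mark the motif letters found. The motifs searched on both strands were TGANTCA (AP-1), TGAGTAA (an AP-1-like element), GGGCGG (the GC box) and TATAAA (the TATA box).
Timp1, chrX:20869916-20870215, plus strand: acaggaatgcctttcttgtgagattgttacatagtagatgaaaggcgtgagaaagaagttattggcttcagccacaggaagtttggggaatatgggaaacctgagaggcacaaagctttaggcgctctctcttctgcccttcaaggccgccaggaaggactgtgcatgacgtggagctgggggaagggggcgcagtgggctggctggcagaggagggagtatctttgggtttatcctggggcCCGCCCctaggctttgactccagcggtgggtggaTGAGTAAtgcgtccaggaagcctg
Timp2, chr11:118355362-118355661, minus strand: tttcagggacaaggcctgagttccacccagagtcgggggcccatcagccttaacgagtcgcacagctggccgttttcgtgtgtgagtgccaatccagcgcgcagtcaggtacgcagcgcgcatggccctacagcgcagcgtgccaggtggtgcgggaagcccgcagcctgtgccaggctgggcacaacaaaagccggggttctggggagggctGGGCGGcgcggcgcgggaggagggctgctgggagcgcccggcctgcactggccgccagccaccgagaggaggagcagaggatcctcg

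The Timp1 window held TGAGTAA, starting 27 bases into the transcript, and a GC box on the opposite strand 8 bases before the start. The Timp2 window held a GC box 37 bases before the start and no TGAGTAA or TGANTCA. In all, 2.68% of 32851 promoter windows of the same length held TGAGTAA, 7.81% held TGANTCA, 35.7% held the GC box and 13.6% held the TATA box. TATAAA was found in neither window. The Timp1 window had 55.0% G and C and 8 CG pairs, and the Timp2 window 68.7% and 25. These matches describe letters and were not tested as sites.

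The libraries set limits that touch every member. Depth was between 58422095 and 72431373 estimated counts. On the leading principal component (67.6% of the variance in log2 CPM), rhCYGB replicate 1 sat with the vehicle libraries and away from rhCYGB replicates 2 and 3. Long and short transcripts were also unevenly represented. For each doubling of length, the deviation of log2 CPM from the mean of all libraries changed by 0.24, -0.35 and -0.33 in rhCYGB replicates 1 to 3, and by 0.40, -0.02 and 0.06 in vehicle replicates 1 to 3. Genes under 1000 bases accordingly had a median log2 fold change of 0.76, and genes over 4000 bases one of -0.33, against -0.06 over all genes tested. In this bulk tissue, fewer cells of a type and less RNA per cell cannot be told apart. All 10 hepatocyte markers examined were tested and expressed, among them Alb at 71843, 141457 and 140609 CPM with rhCYGB and 46059, 76829 and 67740 CPM with vehicle. Their median log2 fold change was 0.71, with 0 past the adjusted p. All 10 lay above 0, where 53.2% of all genes lay below it. Without overlap, 2 of 10 were higher, against 6.02% of all genes.

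Timp1 (gene 21857, mm10 chromosome X, 20870166 to 20874737, plus strand) is the inducible member of the family. It was at 7.21, 12.5 and 8.18 CPM in rhCYGB replicates 1 to 3, against 19.1, 24.7 and 14.8 CPM in vehicle replicates 1 to 3. The highest rhCYGB library lay below the lowest vehicle library, although the gap there was small beside the spread of either group. The means were 9.28 ± 2.79 CPM with rhCYGB and 19.5 ± 4.97 CPM with vehicle (SD, n = 3 each). The log2 fold change was -1.07 (SE 0.32), with an edgeR unadjusted p of 0.0122 and an adjusted p of 0.523.

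That fold change was lower than those of all but 5.31% of the genes tested. An unadjusted p under 0.05 with a lower value was met by 2.06% of genes, and 7.38% of genes were lower with rhCYGB with no overlap of the groups. Timp1 is short, and short genes in these libraries leaned the other way. Among the 1167 genes under 1000 bases, 1.80% were lower without overlap and 3.26% had a lower fold change than Timp1. With each library's length trend removed, the log2 fold change of Timp1 was -1.66 (SE 0.33, edgeR unadjusted p = 0.00160, adjusted p = 0.456). In rhCYGB replicate 1, which as a whole resembled the vehicle libraries, Timp1 had its lowest CPM of all 6 libraries. That library's positive length slope of 0.24 goes with lower CPM of short genes. Vehicle replicate 1, with the higher slope of 0.40, had 19.1 CPM of Timp1. In TPM, which is per length, Timp1 was lowest in rhCYGB replicate 3. The part of transcript length in the Timp1 difference was not tested further.

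**Figure D1:**
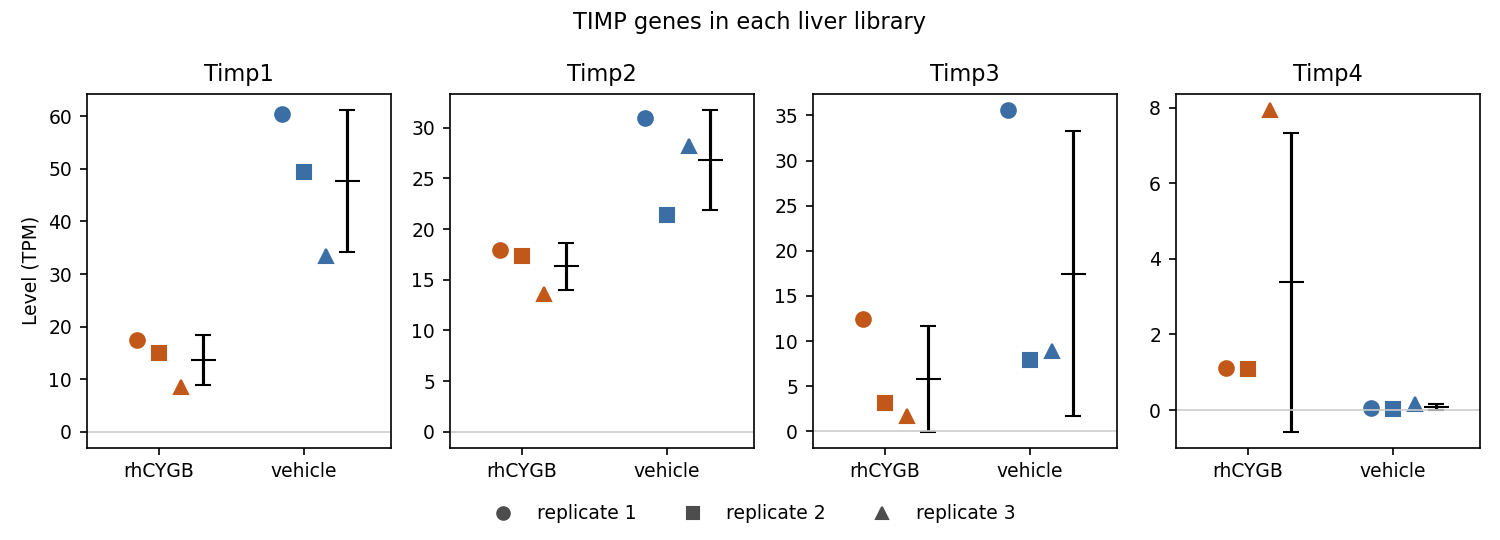
Levels of the 4 TIMP genes in TPM (a level per transcript length with the same total in every library, vertical axes from 0 on separate linear scales) in rhCYGB and vehicle livers. Each symbol is 1 mouse, the bar and whiskers are the mean and SD of 3 mice. Timp1 lay between 8.43 and 17.5 TPM with rhCYGB and between 33.4 and 60.4 TPM with vehicle, while Timp3 and Timp4 were each led by 1 library.

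The authors' transcript table divides Timp1 among 3 RefSeq variants. Variant 2 (NM_011593, 887 bases) and variant 1 (NM_001044384, 890 bases) differ in length by 3 bases, and GENCODE M21 has a pair of Timp1 transcripts that differ at the start of exon 2 by the same 3 bases. The join of exons 1 and 2 is shown for both GENCODE transcripts, with the 3 extra bases in capitals. The join lies shortly before the coding start. That the main RefSeq variants differ at this join is inferred from their lengths only.
Timp1 longer join, ENSMUST00000009530, chromosome X: gacacaccagagCAGataccatgatgg
Timp1 shorter join, ENSMUST00000115342, chromosome X: gacacaccagagataccatgatgg

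Variant 2 had 335, 475 and 237 estimated counts with rhCYGB and 1043, 1146 and 627 with vehicle, so it was lower in every rhCYGB library. Variant 1 had 204, 181 and 71 counts with rhCYGB and 544, 586 and 402 with vehicle, again without overlap. Variant 3 (NM_001294280, 810 bases) had 14, 15 and 0 counts with rhCYGB and 26, 11 and 11 with vehicle, too few to compare. The log2 fold changes were -1.04 (SE 0.39, unadjusted p = 0.0400) for variant 2 and -1.45 (SE 0.43, unadjusted p = 0.0154) for variant 1, each with an edgeR adjusted p of 0.802 over 19664 transcripts. Of those transcripts 0% passed an adjusted p of 0.05, 4.04% had an unadjusted p under 0.05, and 7.77% were lower without overlap.

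Variant 2 made up 60.6%, 70.8% and 76.9% of Timp1 counts with rhCYGB and 64.7%, 65.7% and 60.3% with vehicle. These shares overlapped between groups. They rest on the assembler's division of reads between variants that differ in length by 3 bases, so the split is less certain than the gene total.

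Timp2 (gene 21858, mm10 chromosome 11, 118301061 to 118355411, minus strand) is the broadly expressed member. It was at 30.1, 58.6 and 53.8 CPM with rhCYGB and 39.9, 43.7 and 51.1 CPM with vehicle. The rhCYGB libraries held both the lowest and the highest values. The means were 47.5 ± 15.2 CPM with rhCYGB and 44.9 ± 5.67 CPM with vehicle (SD, n = 3 each). The log2 fold change was 0.08 (SE 0.31, edgeR unadjusted p = 0.797, adjusted p = 0.893), near the median of -0.06 over all genes.

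The direction of Timp2 depended on the scaling. In TPM it was at 17.9, 17.4 and 13.6 with rhCYGB and 31.0, 21.4 and 28.2 with vehicle, with no overlap. Limma on log2(TPM + 1) gave a log2 difference of -0.68 (SE 0.25, adjusted p = 0.373), on a scale where the median over all genes was -0.51 and 12.7% of genes were lower and 1.33% higher without overlap. Relative to that median Timp2 lay at -0.17. On log2(TPM + 0.1), where the median was -0.75, it lay at 0.045 relative to the median, so this sign depends on the added constant. BC100451, a gene that lies within the span of Timp2, had 0, 21 and 17 estimated counts with rhCYGB and 8, 11 and 12 with vehicle.

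The ratio of Timp1 to Timp2 within a library needs no scaling between libraries. In FPKM, which is per length, Timp1 was 0.976, 0.868 and 0.619 times Timp2 with rhCYGB, and 1.95, 2.31 and 1.18 times Timp2 with vehicle. Timp1 thus lay below Timp2 in each rhCYGB library and above it in each vehicle library. The mean log2 ratio was -0.31 ± 0.34 with rhCYGB and 0.80 ± 0.50 with vehicle (SD, n = 3 each), a difference of -1.12. The exact 2-sided permutation test gave p = 0.1, the smallest that 3 against 3 allows, and 0.4 adjusted over the 4 ratios tested.

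For scale, 1.6% of the other genes tested had an FPKM ratio to Timp2 that was lower with rhCYGB without overlap, and 12.9% one that was higher. By length, Timp1 belongs to the band whose median log2 fold change was 0.76, and Timp2 to the band of 2000 to 4000 bases, whose median was -0.10. Without any single library the difference ran from -1.40 to -0.91.

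For Timp1 and Timp3 the groups overlapped. The log2 ratio was 0.49, 2.25 and 2.28 with rhCYGB and 0.76, 2.65 and 1.90 with vehicle, a difference of -0.10 (exact permutation p = 0.9). The difference changed sign to 0.50 without rhCYGB replicate 1 and to 0.34 without vehicle replicate 2. The log2 ratio of Timp2 to Timp3 was 0.52, 2.46 and 2.97 with rhCYGB and -0.20, 1.44 and 1.66 with vehicle, a difference of 1.02 with overlap (exact permutation p = 0.4). Among all other genes, the ratio to Timp3 was lower without overlap in 0.486% and higher in 6.81%.

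**Figure D2:**
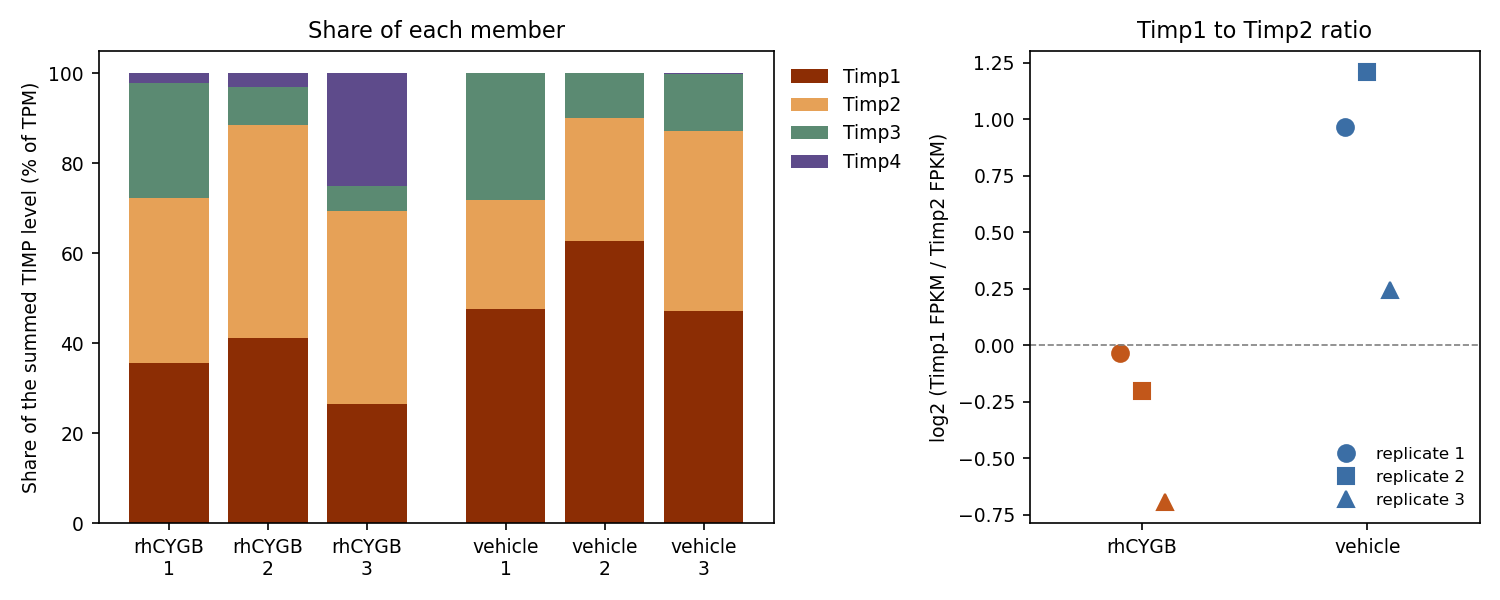
Left, the share of each member in the summed TIMP level of each library (% of TPM, stacked bars, 3 rhCYGB and 3 vehicle livers). Right, the log2 ratio of Timp1 to Timp2 FPKM, 1 symbol per mouse, with the dashed line at equal levels: all 3 rhCYGB livers lie below it, between -0.69 and -0.03, and all 3 vehicle livers above it, between 0.24 and 1.21.

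Per length, Timp1 was the most abundant member in all 3 vehicle libraries and Timp2 in all 3 rhCYGB libraries. Timp1 made up 35.7%, 41.1% and 26.6% of the summed TIMP TPM with rhCYGB, and 47.5%, 62.8% and 47.2% with vehicle. Timp2 made up 36.6%, 47.3% and 42.9% with rhCYGB, and 24.4%, 27.2% and 39.9% with vehicle, where the highest vehicle share lay above the lowest rhCYGB share. In rhCYGB replicate 1 the shares of Timp1 and Timp2 differed by under 1 percentage point, so their order there is not firm. Timp3 ranked 3 of 4 in 4 of 6 libraries, above Timp2 in vehicle replicate 1, and last, behind Timp4, in rhCYGB replicate 3.

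The summed TIMP level was 49.0, 36.7 and 31.7 TPM with rhCYGB and 127, 78.6 and 70.7 TPM with vehicle, a mean log2 difference of -1.21 (exact permutation p = 0.1, the smallest possible). On log2(TPM + 1) the median difference over all genes was itself -0.51, and on log2(TPM + 0.1) it was -0.75. In TPM, 12.7% of single genes were lower and 1.33% higher without overlap. The size of the TIMP difference thus rests on the scale. With summed TMM-scaled CPM, in which long genes weigh more, the log2 difference was -0.33.

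Timp3 (gene 21859, mm10 chromosome 10, 86300412 to 86349505, plus strand) is the matrix-bound member. It was at 27.1, 13.8 and 8.84 CPM with rhCYGB and 59.4, 20.7 and 20.9 CPM with vehicle. Vehicle replicate 1 stood far above the other vehicle libraries, and rhCYGB replicate 1 lay above vehicle replicates 2 and 3, so the groups overlapped. The means were 16.6 ± 9.43 CPM with rhCYGB and 33.7 ± 22.3 CPM with vehicle (SD, n = 3 each). The log2 fold change was -1.02 (SE 0.57, edgeR unadjusted p = 0.113, adjusted p = 0.523), and -0.33 without vehicle replicate 1.

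At 4681 bases Timp3 is the longest member, and the order of its levels was near that of the libraries' length slopes. The 4 libraries with the highest length slopes, vehicle replicate 1, rhCYGB replicate 1, vehicle replicate 3 and vehicle replicate 2, had the 4 highest Timp3 values in that same order. Of these, vehicle replicates 3 and 2 were nearly equal, at 20.9 and 20.7 CPM. The 2 libraries with negative slopes beyond -0.3, rhCYGB replicates 2 and 3, had the lowest. Their order was reversed, with 13.8 CPM at a slope of -0.35 and 8.84 CPM at -0.33. With the length trend removed the log2 fold change was -0.73 (SE 0.40, edgeR adjusted p = 0.460). Among the 3990 genes over 4000 bases, 8.02% had a lower fold change than Timp3. The part of transcript length in the Timp3 difference was not tested further.

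**Figure D3:**
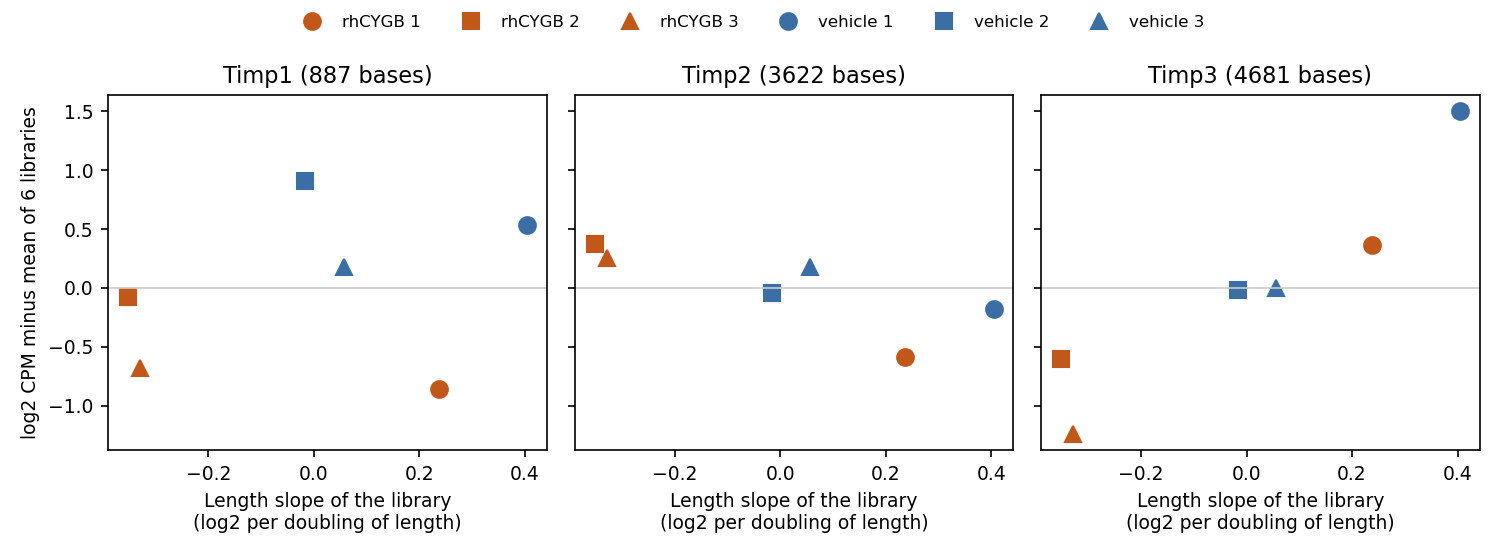
Level of Timp1, Timp2 and Timp3 in each library (log2 CPM minus the mean of all 6 libraries, vertical axis) against the length slope of that library (log2 per doubling of transcript length, horizontal axis), 1 symbol per mouse. Timp3 is lowest in the 2 libraries with the most negative slopes and highest in vehicle replicate 1 with 0.40. Timp1, a short gene, is lowest in rhCYGB replicate 1 (-0.86, slope 0.24), while vehicle replicate 1, with the higher slope of 0.40, is at 0.54. The part of length in these Timp1 values was not tested further.

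Timp1, Timp3 and Timp4 lie within the synapsin genes Syn1, Syn3 and Syn2 on the opposite strand. These genes make vesicle proteins of neurons. In GENCODE M21 no exon bases of Timp1 are shared with Syn1, while Timp3 exons share 1733 bases with Syn3 and Timp4 exons 90 bases with Syn2. The library kit was stranded, but the sources used here do not say how strand entered the counting, so reads over shared bases cannot be assigned with certainty. Syn1 was at 0.977, 0.742 and 0.956 CPM with rhCYGB and 1.15, 0.965 and 1.68 CPM with vehicle. Syn3 was at 0.730, 1.02 and 0.319 CPM with rhCYGB and 1.73, 0.752 and 0.727 CPM with vehicle.

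Timp4 (gene 110595, mm10 chromosome 6, 115245616 to 115251849, minus strand) had 56, 78 and 462 estimated counts with rhCYGB and 2, 2 and 8 with vehicle. This was 0.730, 1.45 and 12.3 CPM with rhCYGB and 0.0237, 0.0284 and 0.114 CPM with vehicle. Every rhCYGB library lay above every vehicle library, and rhCYGB replicate 3 held most of the counts. Timp4 passed the filter on low counts only through the rhCYGB libraries, since 3 of 3 of those and 0 of 3 vehicle libraries reached the filter's level. A gene that passes in that way had to differ, so its high rank is partly fixed by the filter.

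The log2 fold change of Timp4 was 6.41 (SE 1.37, edgeR unadjusted p = 0.00202, adjusted p = 0.523), and 4.27 (SE 0.83) without rhCYGB replicate 3. Summed over mice and scaled, the counts of 596 with rhCYGB and 12 with vehicle gave a ratio of 66.5, with an exact 95% interval of 37.8 to 129 that covers counting error only. That interval leaves out the spread between mice, and 462 of the 596 counts came from rhCYGB replicate 3. Higher values without overlap were seen in 6.02% of genes, and higher values with an unadjusted p under 0.05 in 6.06%. Timp4 was called by limma-voom with sample quality weights (log2 fold change 4.61, adjusted p = 0.0163) and, without rhCYGB replicate 1, by edgeR (6.92, adjusted p = 0.0212). Those settings called 4323 and 3391 genes in all. Since the filter admitted Timp4 only through the rhCYGB libraries, these tests do not stand as separate support. Its adjusted p over the alternatives that gave one ran from 0.0163 to 0.937.

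Syn2, which surrounds Timp4, had low values that were also higher with rhCYGB, at 0.547, 0.464 and 1.91 CPM, against 0.225, 0.241 and 0.143 CPM with vehicle (log2 fold change 2.24, SE 0.72, edgeR unadjusted p = 0.0157, adjusted p = 0.523). In rhCYGB replicate 3 both Timp4 and Syn2 were highest. The part of reads shared between them was not tested.

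Markers of fat and muscle, and of mesothelium, gut and pancreas, were read beside Timp4. Of 10 adipocyte markers 5 passed the filter, and Adipoq, Plin1, Lep and Cfd had 0 counts in all libraries, and the summed level of the list was 1049, 235 and 98.3 TPM with rhCYGB and 1248, 572 and 486 TPM with vehicle, lowest in the library with the most Timp4. That sum is led by Thrsp, a lipogenic gene that liver also expresses. Of the 5 adipocyte markers tested, 2 had a log2 fold change above 0 and 3 below it. Of 10 muscle markers 4 passed, and Myh4 and Myh6 had 0 counts in all libraries. The summed level was 7.93, 8.76 and 4.66 TPM with rhCYGB and 12.7, 10.4 and 11.3 TPM with vehicle. Des, which is also on the list of activated stellate markers, led that sum. It was at 5.57, 6.24 and 4.04 TPM with rhCYGB and 7.85, 7.57 and 7.52 TPM with vehicle. Mesothelial markers summed to 10.99, 11.3 and 11.4 TPM with rhCYGB and 10.9, 10.9 and 16.3 TPM with vehicle. Gut and pancreas markers, of which 4 of 10 passed, summed to 133, 175 and 79.7 TPM with rhCYGB and 62.7, 104 and 130 TPM with vehicle. Fabp2 led that sum, and of the 4 tested 3 lay above 0 and 1 below it. Lgals4, named after its values were seen, was at 5.57, 27.0 and 33.8 CPM with rhCYGB and 3.03, 5.84 and 6.24 CPM with vehicle. Its log2 fold change was 2.13 with overlap (SE 0.65, edgeR unadjusted p = 0.0129, adjusted p = 0.523). In each of these 4 lists 0 markers passed the adjusted p.

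**Figure D4:**
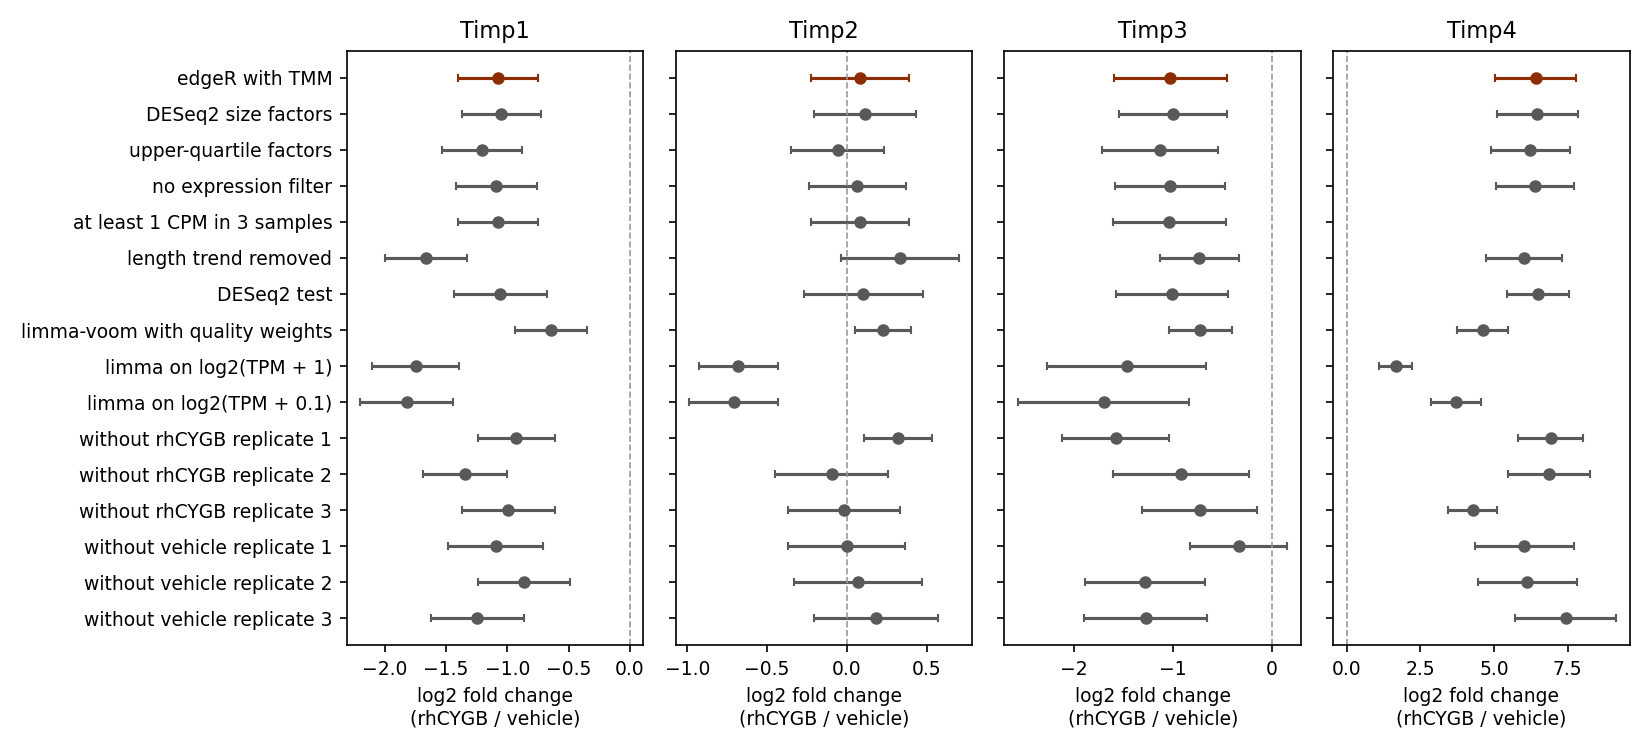
Log2 fold change of each TIMP gene (rhCYGB over vehicle, horizontal axes on separate scales) under each processing setting, with bars of 1 SE. Timp1 and Timp3 stay below 0 and Timp4 above 0 in every setting drawn, while Timp2 lies on either side of 0, between -0.71 and 0.33. Timp4 has no point for the filter of 1 CPM in 3 samples, which it did not pass.

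The proteases that TIMPs block were examined as lists chosen by function. Of 23 MMP genes, 16 were tested, 0 passed the adjusted p, and 5 were lower with rhCYGB without overlap (background 7.38%) and none higher. Their median log2 fold change was -0.39, against -0.06 over all genes. Mmp14, the membrane-bound activator of Mmp2, was at 87.0, 190 and 255 CPM with rhCYGB and 71.3, 145 and 120 CPM with vehicle. Mmp12, the macrophage elastase, was at 69.3, 85.3 and 38.3 CPM with rhCYGB and 115, 164 and 291 CPM with vehicle (log2 fold change -1.56, SE 0.45, edgeR unadjusted p = 0.00999, adjusted p = 0.523). Mmp19 was at 87.3, 69.1 and 84.6 CPM with rhCYGB and 71.6, 63.0 and 70.8 CPM with vehicle.

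Further MMPs are named here after their values were seen. Mmp13, the main interstitial collagenase of the mouse, was at 2.89, 1.82 and 0.637 CPM with rhCYGB and 5.42, 6.43 and 7.95 CPM with vehicle, and Mmp9, a gelatinase, was likewise lower without overlap. Mmp7, made by injured epithelium, was at 14.0, 74.9 and 200 CPM with rhCYGB and 23.0, 16.6 and 24.8 CPM with vehicle, so its rhCYGB values spread to both sides of the vehicle range. Mmp2, the Timp2 and Mmp14 target, was at 10.6, 16.5 and 13.0 CPM with rhCYGB and 10.3, 17.7 and 10.7 CPM with vehicle.

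The log2 ratio of summed TIMP to summed MMP FPKM was -2.25, -2.48 and -3.14 with rhCYGB and -1.43, -1.75 and -2.36 with vehicle. The groups overlapped, since rhCYGB replicate 1 lay above vehicle replicate 3. The difference in means was -0.78 (exact permutation p = 0.2, adjusted p = 0.4 over the 4 ratios). MMP transcripts summed to 233, 205 and 279 TPM with rhCYGB and 343, 263 and 362 TPM with vehicle. Of that sum, Mmp7 alone gave 28.2, 75.3 and 172 TPM with rhCYGB and 60.4, 27.6 and 46.4 TPM with vehicle. The lower ratio in rhCYGB replicates 2 and 3 thus rests in part on this 1 MMP. The ratio without Mmp7 was not tested.

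Of 28 ADAM and ADAMTS genes, 22 were tested and 0 passed. Their median log2 fold change was -0.52, 19 of 22 lay below 0 where 53.2% of all genes did, and 3 were lower without overlap, against 7.38% of all genes. Adam10, a major sheddase that Timp1 and Timp3 block, was at 45.5, 24.7 and 25.6 CPM with rhCYGB and 51.0, 37.7 and 46.1 CPM with vehicle. Adam9 was at 66.4, 21.7 and 1.57 CPM with rhCYGB and 49.97, 41.4 and 47.6 CPM with vehicle. Adam8 was at 14.2, 27.4 and 31.1 CPM with rhCYGB and 18.03, 25.3 and 52.8 CPM with vehicle.

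**Figure D5:**
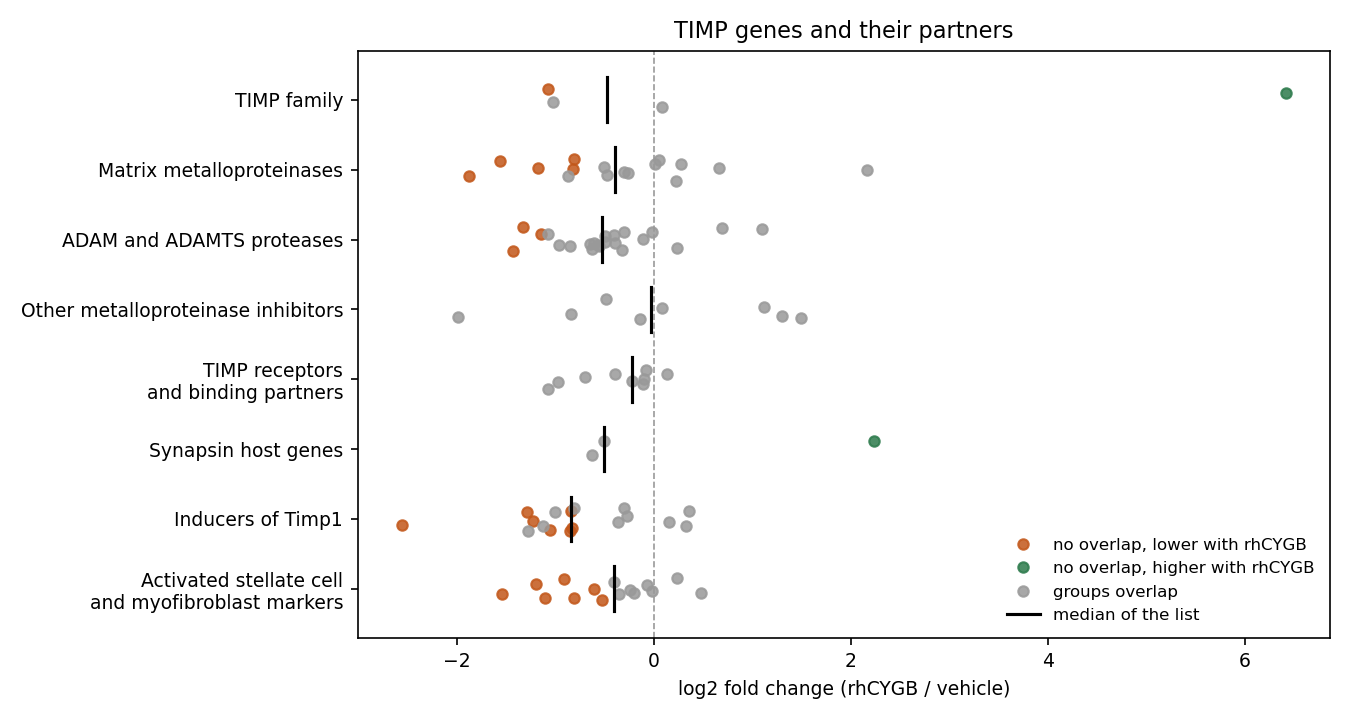
Log2 fold changes (rhCYGB over vehicle, horizontal axis) of the TIMP genes and of the tested genes in lists of their proteases, partners, host genes, inducers and source cells. Each point is 1 gene, coloured by whether the 3 rhCYGB and 3 vehicle CPM values overlap, and the black line is the median of the list. Among the inducers of Timp1, 7 of 17 lie lower without overlap, and the median is -0.84.

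Other secreted inhibitors of metalloproteinases and their relatives showed no shared direction. Of 10, 8 were tested, 0 passed, 4 lay above 0 and 4 below it, and the median was -0.03. The plasma proteins Ahsg (fetuin-A), Pzp and Fetub dominated the list. Pzp, the alpha-macroglobulin of mouse plasma that traps proteases, was at 2963, 3842 and 4281 CPM with rhCYGB and 2913, 4407 and 3163 CPM with vehicle. Ahsg was at 7958, 26147 and 30146 CPM with rhCYGB and 6567, 12570 and 10337 CPM with vehicle. Fetub was at 297, 805 and 1635 CPM with rhCYGB and 202, 440 and 326 CPM with vehicle.

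Among 10 receptors and binding partners of TIMPs, 9 were tested and 0 passed. None was without overlap, where 13.4% of all genes were, and 8 of 9 lay below 0, with a median log2 fold change of -0.22. Cd63, the cell surface partner of Timp1, was at 71.8, 126 and 86.4 CPM with rhCYGB and 73.3, 107 and 124 CPM with vehicle. Lrp1, which takes up TIMPs and their protease complexes, was at 417, 399 and 543 CPM with rhCYGB and 383, 444 and 408 CPM with vehicle. Itgb1, the integrin chain that pairs with Cd63, was at 237, 194 and 164 CPM with rhCYGB and 220, 192 and 218 CPM with vehicle.

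Cytokines and transcription factors known to induce Timp1 were examined as well, since Timp1 is a classic target of IL-6 family cytokines and of AP-1. Of 19, 17 were tested and 0 passed the adjusted p, while 3 had an unadjusted p under 0.05, all lower, where 2.06% of all genes did. The groups did not overlap for 7 of 17, all lower with rhCYGB, against 7.38% of all genes. Jun, an AP-1 subunit, was at 50.1, 35.0 and 13.7 CPM with rhCYGB and 59.6, 59.9 and 57.8 CPM with vehicle. Jund was at 95.0, 156 and 215 CPM with rhCYGB and 74.6, 163 and 126 CPM with vehicle. Stat3, which carries the IL-6 family signal, was at 98.7, 75.7 and 122 CPM with rhCYGB and 84.7, 79.9 and 72.3 CPM with vehicle.

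The next inducers are named after their values were seen. Tgfb1, the main fibrogenic cytokine, was at 14.8, 16.3 and 8.87 CPM with rhCYGB and 19.3, 23.8 and 28.2 CPM with vehicle (log2 fold change -0.83, SE 0.31, edgeR unadjusted p = 0.0300, adjusted p = 0.523). Osm (oncostatin M), a strong inducer of Timp1, had 16, 0 and 0 estimated counts with rhCYGB and 47, 42 and 18 with vehicle. All vehicle libraries reached the filter's level for Osm, while rhCYGB replicates 2 and 3 did not. Its place among the inducers lower without overlap is therefore partly fixed by the filter. Il6 itself had 4, 0 and 0 counts with rhCYGB and 0, 12 and 0 with vehicle, and did not pass the filter.

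Of 15 markers of activated stellate cells, the main source of Timp1, 7 were lower without overlap in CPM, against 7.38% of all genes, and 0 passed. The median log2 fold change was -0.40. Their summed level was 1134, 494 and 178 TPM with rhCYGB and 2523, 1581 and 1811 TPM with vehicle, without overlap, on a scale where 12.7% of single genes were lower without overlap. Spp1 made up much of that sum. Col3a1, a scar collagen, was at 210, 218 and 37.8 CPM with rhCYGB and 382, 377 and 309 CPM with vehicle, and Spp1 (osteopontin), which bile duct cells also make, was at 542, 299 and 113 CPM with rhCYGB and 975, 892 and 897 CPM with vehicle. Vim was at 79.2, 211 and 133 CPM with rhCYGB and 91.9, 171 and 222 CPM with vehicle. The 10 quiescent stellate markers summed to 536, 316 and 239 TPM with rhCYGB and 866, 497 and 487 TPM with vehicle. Their median log2 fold change was -0.71, lower than that of the activated list, and 8 of 10 lay below 0, where 53.2% of all genes did. Of these markers 1 was lower without overlap, against 7.38% of all genes.

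With each activated stellate marker weighted equally, the mean centred log2 CPM was -0.22, 0.35 and -0.93 with rhCYGB and 0.29, 0.022 and 0.48 with vehicle, so the groups overlapped through rhCYGB replicate 2. Bile duct markers summed to 903, 294 and 138 TPM with rhCYGB and 2098, 1193 and 1354 TPM with vehicle. Spp1, also on this list, led that sum at 822, 225 and 72.9 TPM with rhCYGB and 1923, 1111 and 1261 TPM with vehicle. The median log2 fold change of the bile duct list was -0.11, and 2 of 10 were lower without overlap, against 7.38% of all genes. Macrophage markers summed to 2109, 1768 and 878 TPM with rhCYGB and 2827, 2360.4 and 3646 TPM with vehicle, a sum led by Lyz2. Their median log2 fold change was -0.17, and 4 of 10 lay above 0. Without overlap, 1 of 10 was higher and 1 lower, near the shares of all genes, 6.02% higher and 7.38% lower. Marco, a scavenger receptor named here after its values were seen, was the higher one, at 147, 244 and 214 CPM with rhCYGB and 109, 99.4 and 106 CPM with vehicle (log2 fold change 0.94, SE 0.28, edgeR unadjusted p = 0.0116, adjusted p = 0.523). Endothelial markers summed to 136, 69.7 and 33.4 TPM with rhCYGB and 166, 107 and 93.3 TPM with vehicle. Their median log2 fold change was -0.36, and none was without overlap, where 13.4% of all genes were. The part of cell makeup in the Timp1 difference was not tested.

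Genes with the pattern nearest to each member were taken as the 3 with the smallest root mean square difference of centred log2 CPM over the 6 libraries, among 11700 genes. For Timp1 these were Gpr4, a proton-sensing receptor, at 0.21, Hdac7, a histone deacetylase, at 0.23, and Cpe, a carboxypeptidase of hormone granules, at 0.25. Hdac7 was at 3.32, 4.64 and 3.35 CPM with rhCYGB and 9.80, 8.37 and 7.67 CPM with vehicle. For Timp2 they were Slc11a1, a metal transporter of macrophages, at 0.06, Arhgdia at 0.09, and Ripk3, a necroptosis kinase, at 0.10. Slc11a1 was at 26.7, 49.3 and 47.7 CPM with rhCYGB and 32.9, 40.5 and 46.2 CPM with vehicle.

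For Timp3 the nearest genes were Fam167a at 0.11, Pidd1, a death domain protein, at 0.11, and Cdon, a hedgehog co-receptor, at 0.12. For Timp4 no gene came as close. Fam107a was at 0.79 and Eif4ebp3, a repressor of translation, at 0.84. Eif4ebp3 was at 23.1, 140 and 894 CPM with rhCYGB and 4.63, 12.9 and 15.7 CPM with vehicle. It was highest in rhCYGB replicate 3, as Timp4 was.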

How the data were processed

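RNA was measured in 6 mice, 3 per group, each its own animal per the labels, and replicates are numbered in order of deposition. The authors deposited gene and transcript tables that hold estimated counts, already whole numbers, and FPKM values. The submitters' processing notes list HISAT2 2.1.0 and build mm10, StringTie 1.3.4d, and FastQC 0.11.7. An estimated count can share reads among isoforms, and intervals cover counting error only.

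Deposited counts were tested in R 4.3.3 with edgeR 4.0.16 (filterByExpr, TMM, robust quasi-likelihood F test, Benjamini-Hochberg over all 14415 genes kept, threshold 0.05). SE is the absolute log2 fold change divided by the root of F. TPM is FPKM divided by its library's sum. Log2 CPM used a prior count of 2, and nearest genes a mean of at least 1 CPM. Alternatives used DESeq2 1.42.0, limma 3.58.1, other scalings and filters, a loess on transcript length, and libraries left out in turn. The test was tested on simulated data. Beside the members, genes were named as the 3 of highest mean CPM in a list, the synapsins and the 3 nearest in pattern. BC100451, for its place within Timp2, and the adipocyte and muscle markers at 0 were chosen after their values were seen, as were the others so marked. For Timp4 only the first 2 nearest genes are given, and the other is not reported here. Members and lists were chosen with earlier results of these data known.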

Additional observations from a re-analysis of the deposited data

How the results depend on the processing

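EdgeR called 0 of 14415 genes (1170 at an unadjusted p under 0.05). DESeq2 called 65 of the 1558 genes it left after its own filtering, which gave none of the TIMP genes an adjusted p (its unadjusted p for Timp4 was 6.73e-10), and limma-voom with quality weights called 4323. With 1 library left out the gene count ran from 0 to 3391 and the transcript count from 0 to 958, both highest without rhCYGB replicate 1. Timp1 and Timp3 stayed lower in all 15 alternatives, from -1.82 to -0.64 and from -1.70 to -0.33, and none passed (adjusted p from 0.0689 to 0.937 and from 0.0730 to 0.937). Timp2 changed sign with upper-quartile factors (-0.058), on log2(TPM + 1) (-0.68) and on log2(TPM + 0.1) (-0.71), and ran from -0.094 to 0.32 with 1 library left out. Timp4 stayed higher in 14 alternatives and passed with quality weights (4.61). With 1 library left out it ran from 4.27 to 7.42 and passed without rhCYGB replicate 1. The filter of 1 CPM in 3 samples removed it. The Timp1 to Timp3 log2 difference ran from -0.60 to 0.50 with 1 library left out. Directions of the other 3 ratios and of the summed level held. The cause of these changes was not tested. No paired analysis was possible because the labels give no replicate numbers shared between the groups. Low counts limit Timp4 with vehicle, and the filter admitted it only through the rhCYGB libraries.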
